A study of Rattus norvegicus with 6 samples.

Results

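The 6 identifiers described here belong to the rat gene annotation, out of 22250 in the count tables. Of the 6, 2 are listed for Gnas, ENSRNOG00000025889 and ENSRNOG00000047374, and the other 4 for Adcy8 (ENSRNOG00000004890), Prkaca (ENSRNOG00000005257), Creb1 (ENSRNOG00000013412) and Crem (ENSRNOG00000014900). The first Gnas identifier was picked because its response to MS-275 matches the change the study states for Gnas, so its change is given as a description and was not tested. The other 5 were listed by gene, for a place in cAMP signalling or, for ENSRNOG00000047374, for lying at the Gnas locus, and their changes were tested. These 5 were also listed with earlier results of these data known, so the tests are not of genes picked blind to the outcome. The tables pair no identifier with a name and the RefSeq table used here carries 0 of these identifiers, so the names are those of the list and were not checked. All 6 identifiers had enough counts to be among the 12596 genes tested.

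The libraries came from BRIN-BD11, an insulin-secreting rat line made by fusing RINm5F insulinoma cells with islet cells of the NEDH strain, at passage 25. The 3 control libraries, titled WT, had no HDAC inhibitor, and 3 came from cells given 5 µM MS-275 (entinostat), an inhibitor of class I histone deacetylases, 24 h after seeding and kept with it for 16 h. The labels name DMSO, at 0.1%, as the solvent of MS-275, and give no solvent for the controls. The study's text has the controls treated with DMSO, at a lower concentration than the labels give for MS-275. Which source is right could not be settled, so whether the solvent was matched between the groups is not known. If it was not matched, an effect of the solvent and of MS-275 cannot be told apart. The labels name no GLP-1 receptor agonist or other cAMP-raising agent for either group. They do not say whether the repeats were separate cultures, so p-values measure the spread between these libraries, which may be technical.

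In beta cells an incretin receptor such as the GLP-1 receptor activates Gαs, the product of Gnas, and Gαs switches on adenylyl cyclases that make cAMP from ATP. Cyclic AMP releases the catalytic subunits of protein kinase A, and these phosphorylate CREB and its relative CREM at cAMP response elements in the promoters of target genes. The pathway is known in this tissue for raising insulin release when glucose is high.

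Libraries held from 5230555 to 9172422 counts on genes. The place of each library between the groups was measured. Over the genes with an adjusted p under 0.05 and a log2 fold change of 1 or more in size, the displacement of a library was taken as its distance from the mean of its 2 replicates, as a percentage of the distance to the mean of the other group, a measure chosen after the data were seen. For control replicate 1 the median displacement was 5.53% over genes higher with MS-275 and 11.7% over genes lower with it. For MS-275 replicate 3 these medians were 16.5% and 8.09%, and for each of the other 4 libraries both were below 0. For a single gene the deviations within a group cancel, so some library lies on the side of the other group. Medians over genes need not cancel exactly. MS-275 replicate 1 lay about as far the opposite way from MS-275 replicate 3, at -13.7% and -8.44%. The sign alone therefore does not set control replicate 1 and MS-275 replicate 3 apart. The log2 changes of the members, and the differences between them, are given with and without these 2, which lay nearest to the other group.

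Of the 5 identifiers tested, 3 rose, ENSRNOG00000047374 of Gnas, Adcy8 and Prkaca, at an adjusted p under 0.05 in edgeR's quasi-likelihood test, and 0 fell. Creb1 and Crem did not pass. Over all tested genes 63.6% passed in either direction, 32.1% as higher and 31.5% as lower, so 3 of 5 in either direction is close to the background of this treatment. The split over all genes turned with the scaling, from 3661 higher and 4451 lower with library sizes alone to 4593 higher and 3287 lower with upper-quartile scaling. In RNA from a whole culture, more RNA per cell and more cells that express a gene cannot be told apart. The median log2 fold change of the 5 was 0.36, against -0.01 over all tested genes.

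**Figure D1:**
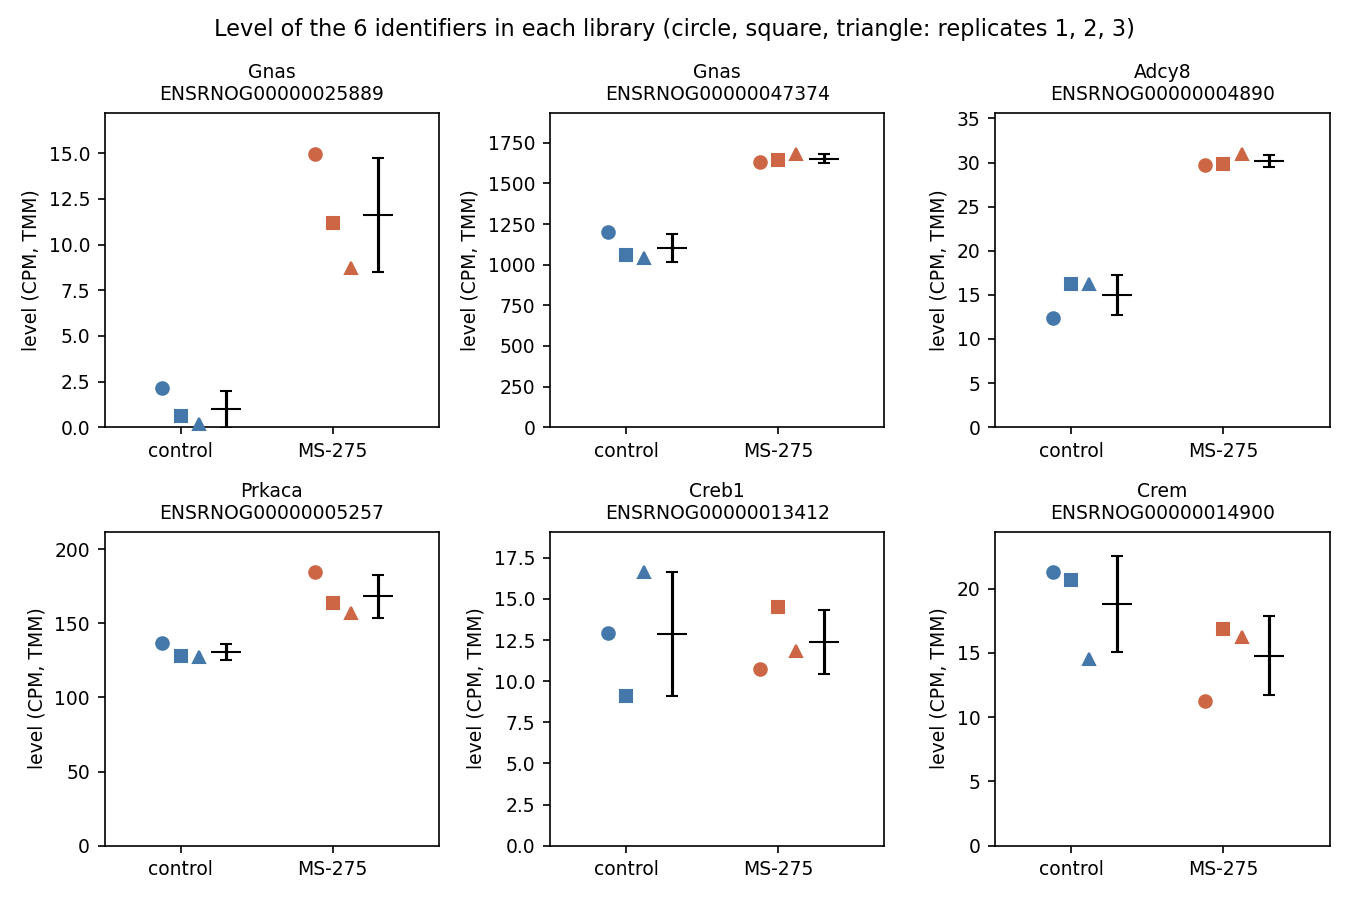
Level of each of the 6 identifiers in each library, in CPM (counts scaled to the library's total, with TMM) on a linear axis from 0, with the mean and SD of each group of 3 beside the points (circles, squares and triangles are replicates 1, 2 and 3, and an error bar that would pass below 0 ends there). The groups stand apart for both Gnas identifiers, Adcy8 and Prkaca, and overlap for Creb1 and Crem. ENSRNOG00000025889 was chosen for its rise, so its separation is no finding, and 34.1% of all tested genes also stand apart with MS-275 higher.

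Gnas encodes Gαs, the stimulatory G protein subunit that couples the receptor to adenylyl cyclase. The locus is imprinted and is known to start transcripts at several alternative first exons, among them those of the neuroendocrine protein NESP55 and of the long form XLαs, and to carry antisense transcripts. RefSeq's promoter table for the assembly GRCr8, which is not the build of the counts (Rnor_6.0), lists 3 starts for Gnas, and they are shown here because 2 identifiers are listed for this gene. Each run holds 250 bases before and 50 bases after the start, 5′ to 3′ on the + strand, and capitals mark the short cAMP response element, TGACG or its complement CGTCA.
Gnas start 1, chr3:183489398-183489697: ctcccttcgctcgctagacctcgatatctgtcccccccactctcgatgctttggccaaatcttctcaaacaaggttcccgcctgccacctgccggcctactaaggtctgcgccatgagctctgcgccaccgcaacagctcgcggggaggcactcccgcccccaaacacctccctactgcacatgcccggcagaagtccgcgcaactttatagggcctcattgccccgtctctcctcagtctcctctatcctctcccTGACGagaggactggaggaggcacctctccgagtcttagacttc
Gnas start 2, chr3:183502993-183503292: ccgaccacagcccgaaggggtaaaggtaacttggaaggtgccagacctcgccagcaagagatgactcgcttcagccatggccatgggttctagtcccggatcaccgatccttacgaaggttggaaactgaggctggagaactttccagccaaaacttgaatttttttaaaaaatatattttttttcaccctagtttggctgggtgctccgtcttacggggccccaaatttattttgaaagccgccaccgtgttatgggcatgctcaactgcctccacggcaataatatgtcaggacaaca
Gnas start 3, chr3:183537089-183537388: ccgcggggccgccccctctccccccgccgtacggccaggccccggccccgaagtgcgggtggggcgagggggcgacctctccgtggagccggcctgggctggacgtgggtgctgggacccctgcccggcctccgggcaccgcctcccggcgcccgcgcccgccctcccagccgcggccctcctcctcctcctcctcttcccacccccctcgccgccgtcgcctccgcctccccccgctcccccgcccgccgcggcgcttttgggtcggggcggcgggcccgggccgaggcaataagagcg
The starts differ in CpG content, with 18, 12 and 41 CpG dinucleotides in 300 bases in this order, against a median of 7 over the 33469 promoters in the table. Only 2.40% of these promoters hold more CpG than the third Gnas start. Start 1 holds 1 short element, 6 bases after the start, and the letters of the full element TGACGTCA are in none of these 3 windows. The files do not say which start, exon or strand each identifier covers.

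The 2 Gnas identifiers both read higher with MS-275, but by very different amounts and from very different numbers of reads. The counts of ENSRNOG00000047374 in replicates 1, 2 and 3 were 9527, 8631 and 6014 for the controls and 8826, 8384 and 15041 for MS-275. Scaled for library size, its level was 1199, 1061 and 1041 CPM in the controls and 1630, 1645 and 1682 CPM with MS-275. The treated libraries lay close together and all above the controls, among which replicate 1 was the highest. The mean level was 1100.0 ± 86.0 CPM for the controls and 1652 ± 26.4 CPM for MS-275 (SD, n = 3 each). The log2 fold change was 0.59 (SE, the standard error, 0.08, with an adjusted p of 9.03e-06 in edgeR), a 1.50-fold rise with a 95% interval from 1.34 to 1.68. The exact permutation test on the 6 libraries gave p = 0.1 (two-sided), the smallest that 3 against 3 allow. Without control replicate 1 the log2 fold change was 0.66 and without MS-275 replicate 3 it was 0.57.

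The counts of ENSRNOG00000025889 in replicates 1, 2 and 3 were 17, 5 and 1 for the controls and 81, 57 and 78 for MS-275. On the CPM scale these were 2.14, 0.614 and 0.173 in the controls and 15.0, 11.2 and 8.72 with MS-275. The groups did not overlap, and the lowest treated library was well above control replicate 1, which held most of the control reads. A count of 3, taken as the floor, was worth 0.422 CPM on average in the controls, so control replicate 3 lay under it. The fitted log2 fold change, by which this identifier was chosen, was 3.43 (standard error 0.43), and 1.55% of the tested genes had a larger one. It was 4.68 without control replicate 1, 3.62 without MS-275 replicate 3, and between 3.04 and 3.46 without any other library. With a prior count of 2 in the estimate, chosen after the data were seen, it was 3.16.

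The 2 identifiers were also set side by side in the same library. Since ENSRNOG00000025889 was chosen for its rise, its ratio and its share are a description of that rise and no test of it. The log2 ratio of ENSRNOG00000025889 to ENSRNOG00000047374, which needs no scaling between libraries, was -9.09, -10.62 and -11.97 in the controls and -6.76, -7.19 and -7.58 with MS-275. The difference of the group means was 3.38, against SDs of 1.44 in the controls and 0.41 with MS-275, and the ratio was higher in all the treated libraries. Its size rests on few control reads, as control replicate 3 had 1 read, under the floor, with 0.5 added. The difference was 4.12 without control replicate 1, 2.68 without control replicate 3 and 3.58 without MS-275 replicate 3. From counts summed over each group it was 2.82, and between the fitted changes it was 2.84. ENSRNOG00000025889 took 0.178%, 0.0579% and 0.0166% of the reads on both identifiers in the controls and 0.909%, 0.675% and 0.516% with MS-275. These are shares of reads, not of transcripts, since neither identifier's length is in the files used here.

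**Figure D2:**
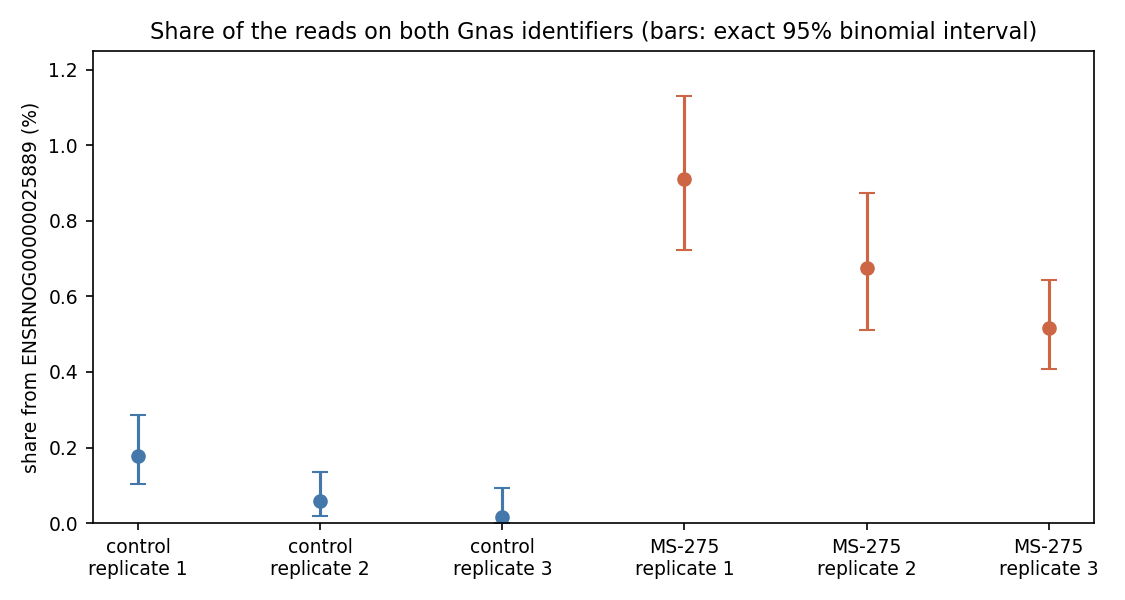
Share of the reads on both Gnas identifiers that fell on ENSRNOG00000025889, in percent, for each of the 6 libraries, with exact 95% binomial intervals that cover counting error only. The identifier was chosen for its rise, and the 3 controls lie between 0.0166% and 0.178% and the 3 MS-275 libraries between 0.516% and 0.909%.

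Added together as if both belonged to Gnas, which was not checked, the 2 identifiers gave 1101 ± 87.0 CPM for the controls and 1664 ± 23.5 CPM for MS-275 (SD, n = 3 each). The difference of the mean log2 CPM was 0.60, close to the 0.59 of ENSRNOG00000047374 alone, and it was 0.66 without control replicate 1 and 0.59 without MS-275 replicate 3. Of the 563 CPM by which the sum rose, ENSRNOG00000025889 supplied 1.89%. Nearly all reads on the 2 identifiers thus followed the 1.50-fold change, and the larger change was that of 216 treated and 23 control reads. Alignments that fell on more than 1 gene, and so were counted for none, made up 0.174% ± 0.00348 of all alignments for the controls and 0.202% ± 0.0178 for MS-275 (SD, n = 3 each), over all genes. How many of them lay at Gnas was not tested, and where strandedness is not stated, reads of a gene and of an antisense partner cannot be told apart.

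Adcy8 encodes an adenylyl cyclase that is stimulated by calcium and calmodulin as well as by Gαs. Its counts in replicates 1, 2 and 3 were 98, 132 and 94 for the controls and 161, 152 and 277 for MS-275. These were 12.3, 16.2 and 16.3 CPM in the controls and 29.7, 29.8 and 31.0 CPM with MS-275. The treated libraries were almost alike, and control replicate 1 was the lowest of all, farther from the treated group than its replicates. The group levels were 14.9 ± 2.26 CPM and 30.2 ± 0.688 CPM (SD, n = 3 each). The log2 fold change of 1.02 (SE 0.14, edgeR adjusted p = 1.05e-05) was a 2.03-fold rise with a 95% interval from 1.66 to 2.49. It was 0.90 without control replicate 1 and 1.00 without MS-275 replicate 3, with adjusted p = 5.25e-05 and 7.13e-06 in that test. Adcy8 alone of the 5 reached a log2 fold change of 1, as 13.9% of the tested genes did in this direction with an adjusted p under 0.05, and it fell short of that size in 3 of 12 alternative settings, at 0.90 without control replicate 1, 0.96 with library sizes alone and 0.998 with no low-count filter. The exact permutation test gave p = 0.1 (two-sided).

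Prkaca encodes the alpha catalytic subunit of protein kinase A, the kinase that cAMP sets free. Replicates 1, 2 and 3 had 1087, 1040 and 736 reads on it among the controls and 998, 834 and 1403 among the treated libraries. On the CPM scale the controls were at 137, 128 and 127 and the treated libraries at 184, 164 and 157. The lowest treated library was above the highest control, and MS-275 replicate 1 was the farthest from them. The levels of 131 ± 5.31 and 168 ± 14.3 CPM (SD, n = 3 each) gave a log2 fold change of 0.36 (SE 0.08, edgeR adjusted p = 0.00123). This was a 1.29-fold rise, with a 95% interval from 1.14 to 1.45, and 30.8% of the tested genes had a larger log2 fold change. It was 0.40 without control replicate 1 and 0.41 without MS-275 replicate 3. The exact permutation test gave p = 0.1 (two-sided).

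Among the 5 identifiers tested, the treated and control libraries did not overlap in 3, the same 3 that rose. Over all tested genes, 4292 (34.1%) did not overlap with MS-275 higher, and 4039 were called higher. A lack of overlap therefore does not set these 3 apart from other genes that rose. The share of all genes without overlap in either direction is not given here, so 3 of 5 was not compared with it.

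Creb1 encodes CREB, the activator that protein kinase A phosphorylates at cAMP response elements. Its counts were low, at 103, 74 and 96 for controls 1, 2 and 3 and 58, 74 and 106 for treated libraries 1, 2 and 3. The controls were at 13.0, 9.09 and 16.6 CPM and the treated libraries at 10.7, 14.5 and 11.9 CPM. The treated libraries lay inside the range of the controls, which themselves spread widely. The levels of 12.9 ± 3.76 and 12.4 ± 1.95 CPM (SD, n = 3 each) gave a log2 fold change of -0.05 (SE 0.21, edgeR adjusted p = 0.859). The 95% interval ran from a 0.711-fold to a 1.32-fold level. The log2 fold change was -0.02 without control replicate 1 and -0.01 without MS-275 replicate 3. The sign turned with the library set, to 0.16 without control replicate 3 and 0.04 without MS-275 replicate 1, and was also positive, at 0.04, with upper-quartile scaling. The exact permutation test gave p = 1 (two-sided).

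Crem encodes CREM, a relative of CREB whose gene makes both activators and repressors. An internal promoter, itself rich in cAMP response elements, is known to make the short repressor ICER when cAMP rises. RefSeq lists 3 starts for Crem in GRCr8, and the 2 with a full element are shown because they are the only 2 of the 9 starts found for the members that hold one. No start was found for Adcy8, so its promoter was not searched. Capitals mark TGACG and CGTCA, which overlap to form the full TGACGTCA.
Crem start 2, chr17:58984547-58984846 (+ strand): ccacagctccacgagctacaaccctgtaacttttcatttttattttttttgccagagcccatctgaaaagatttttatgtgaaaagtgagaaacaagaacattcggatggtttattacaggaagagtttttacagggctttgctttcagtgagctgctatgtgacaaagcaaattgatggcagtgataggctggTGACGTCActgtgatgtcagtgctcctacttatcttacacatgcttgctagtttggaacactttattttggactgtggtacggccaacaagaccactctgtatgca
Crem start 3, chr17:58985240-58985539 (+ strand): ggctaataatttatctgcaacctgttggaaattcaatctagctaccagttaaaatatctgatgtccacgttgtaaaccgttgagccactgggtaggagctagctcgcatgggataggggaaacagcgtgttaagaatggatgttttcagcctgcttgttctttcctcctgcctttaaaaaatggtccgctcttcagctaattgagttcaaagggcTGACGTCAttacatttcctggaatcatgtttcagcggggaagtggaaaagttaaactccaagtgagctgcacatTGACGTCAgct
The full element begins 56 bases before start 2, and 35 bases before and 39 bases after start 3. Of the 33469 promoters of this length, 1.83% hold the full element and 21.2% hold at least 1 short element on either strand. Among the 4 members' symbols found in the table, the short element is in 3 of 3 Crem starts, 1 of 2 Creb1 starts, 1 of 3 Gnas starts and the 1 Prkaca start. A match describes these letters alone and shows no binding.

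The counts of Crem in replicates 1, 2 and 3 were 169, 168 and 84 for the controls and 61, 86 and 145 for MS-275. These were 21.3, 20.6 and 14.5 CPM in the controls and 11.3, 16.9 and 16.2 CPM with MS-275. Controls 1 and 2 were above all the treated libraries, while control replicate 3 lay among them. The levels were 18.8 ± 3.72 and 14.8 ± 3.06 CPM (SD, n = 3 each), with a log2 fold change of -0.35 (SE 0.18, edgeR adjusted p = 0.103) and a 95% interval of 0.599-fold to 1.02-fold. With all 6 libraries it did not pass (exact permutation test, two-sided p = 0.3). Without control replicate 3 the log2 fold change was -0.50 and the adjusted p in edgeR's test was 0.0330, whereas over the 12 alternatives that p was between 0.0330 and 0.325. Without control replicate 1 the log2 fold change was -0.25 and without MS-275 replicate 3 it was -0.44. It was smallest in size, at -0.20, without MS-275 replicate 1. Counts per gene do not separate ICER from the other products of Crem.

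**Figure D3:**
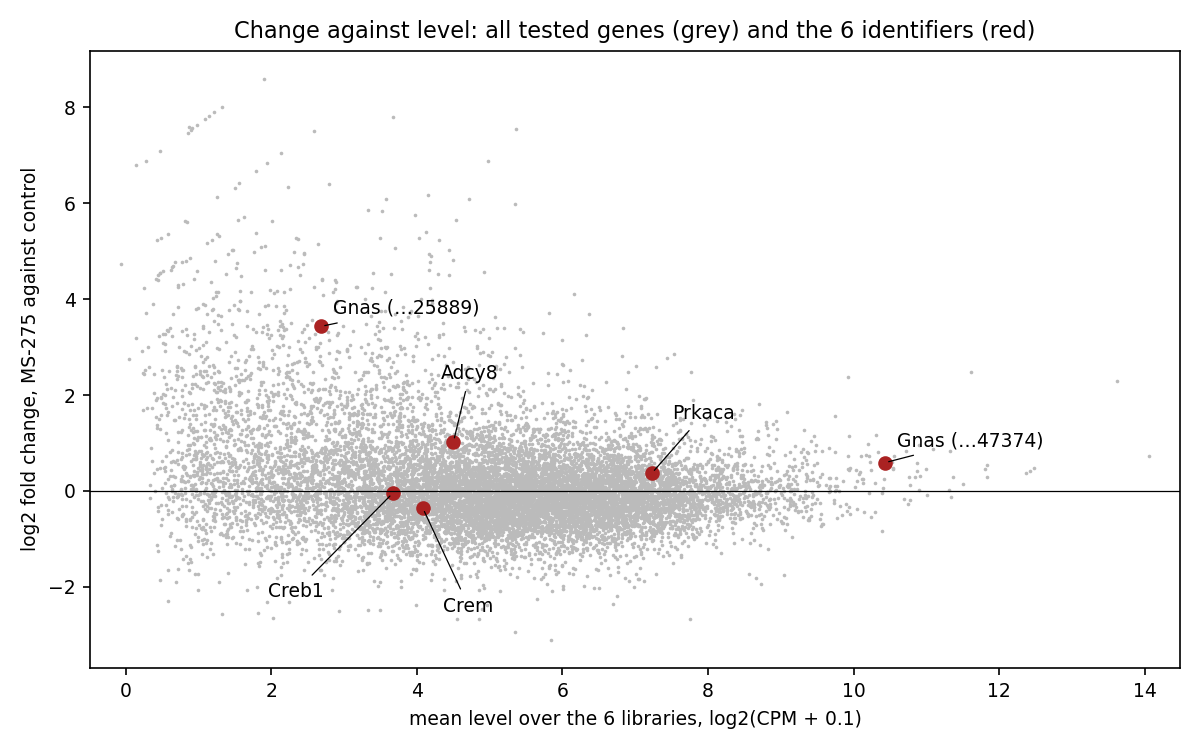
Log2 fold change of MS-275 against control (vertical axis) against the mean level over the 6 libraries, as log2(CPM + 0.1) not corrected for length (horizontal axis), for the 12596 tested genes in grey and the 6 identifiers in red. The 2 Gnas identifiers lie far apart on both axes, at 3.43 and 0.59 on the vertical axis, while Creb1 lies near the line at 0, at -0.05, and Crem at -0.35, about as far below it as Prkaca lies above it at 0.36.

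The spread between replicates differed among the identifiers. The SD was 7.82% of the mean in the controls and 1.60% with MS-275 for ENSRNOG00000047374, and 4.06% and 8.51% for Prkaca. For Adcy8 it was 15.1% and 2.28%, and for Crem 19.8% and 20.7%. Creb1 had 29.2% and 15.8%, and ENSRNOG00000025889 had 106% and 27.1%. The 2 with the most reads, ENSRNOG00000047374 and Prkaca, varied least in the controls.

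Ordered by signed log2 fold change, from the highest to the lowest, the 5 tested identifiers ran from Adcy8 through ENSRNOG00000047374, Prkaca and Creb1 to Crem. Neighbours in this order were compared by the log2 ratio of their CPM within each library, 4 pairs in all. The order was set by the same changes, which fixes most directions, so the differences are a description. The ratio of Adcy8 to ENSRNOG00000047374 was higher with MS-275 by 0.42 and that of ENSRNOG00000047374 to Prkaca by 0.23, with no overlap between the groups in either. The first was 0.23 without control replicate 1 and 0.42 without MS-275 replicate 3, and the second was 0.26 and 0.17. The ratios of Prkaca to Creb1 and of Creb1 to Crem overlapped between the groups, with differences of 0.39 and 0.31. Without control replicate 1 these were 0.40 and 0.24, and without MS-275 replicate 3 they were 0.42 and 0.41. That of Creb1 to Crem was 0.014 without control replicate 2 and 0.69 without control replicate 3, and that of Prkaca to Creb1 was 0.60 and 0.17 without these, and 0.23 without MS-275 replicate 1. An exact permutation test of 3 against 3 libraries cannot go below p = 0.1, so no pair could pass at 0.05 and none is called different.

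**Figure D4:**
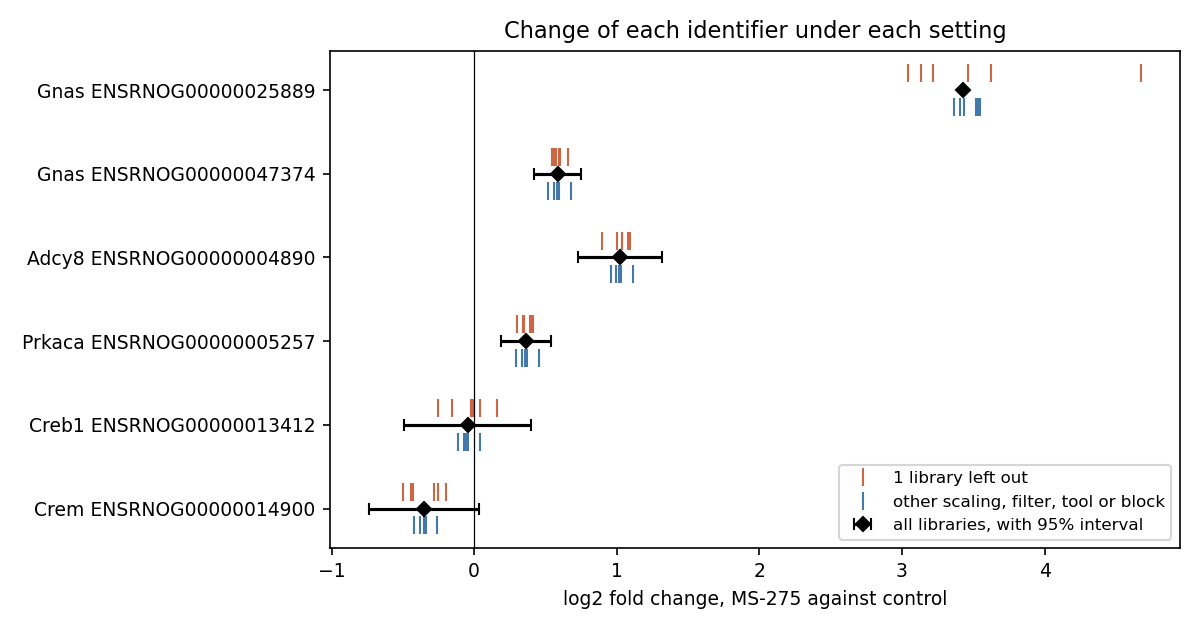
Log2 fold change of MS-275 against control (horizontal axis) for each identifier with all libraries (diamonds, with the 95% interval of the fit except for ENSRNOG00000025889, which was chosen by its change), with 1 library left out (upper ticks) and with another scaling, filter, tool or a replicate block (lower ticks). ENSRNOG00000025889 ranges from 3.04 to 4.68, Adcy8 from 0.90 to 1.11, and Creb1 lies on both sides of 0.

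The tested genes whose pattern over the 6 libraries was most like that of each Gnas identifier were different genes. For ENSRNOG00000025889 it was ENSRNOG00000023895 (Pearson r = 0.998 of log2 CPM over 6 libraries), at 0.740 ± 0.469 CPM in the controls and 3.86 ± 0.830 CPM with MS-275 (SD, n = 3 each). For ENSRNOG00000047374 it was ENSRNOG00000023148 (r = 0.999 over 6 libraries), at 43.7 ± 11.7 and 191 ± 10.4 CPM (SD, n = 3 each). With 2 groups of 3, such an r mostly describes the difference between the groups, and 1124 and 1783 genes were above 0.95 with the 2 identifiers.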

How the data were processed

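The 6 libraries were grouped by their titles. The authors filtered contaminating sequences by bowtie2 mapping, used STAR to align to Rnor_6.0, and deposited raw counts per gene (a featureCounts step is named, but the tables end with 5 summary lines of the htseq-count kind, left out here). The submitters' notes name Trimmomatic 0.36v and STAR 0.27v. The annotation release and strandedness are not given in the sources used here. A table of the authors' own DESeq2 comparison, with group means, log2 fold changes and p-values, was not used.

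Genes kept by filterByExpr were scaled by TMM (factors 0.976 to 1.03) and tested with edgeR 4.0.16 (quasi-likelihood, robust, Benjamini-Hochberg over 12596 genes) in R 4.3.3. Standard errors are the size of the log2 fold change over the square root of F. Ratios of the Gnas identifiers had 0.5 added to each count. Log2 CPM had a prior count of 2. Permutation tests used SciPy 1.17.1. The scripts were tested on simulated data.

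The members and lists were chosen with earlier results of these data known. The genes to be named were the 6 members, genes of lists for the rest of the pathway and beta cell and other cell type markers, and the gene most like each member, of which at most 2 rising and 2 falling unnamed identifiers were to be printed. No identifier could be paired with a symbol, so the lists were not run and the cell type was not checked against its markers.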

Additional observations from a re-analysis of the deposited data

Results flagged for a closer look

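Most alignments lie outside the counts on genes. Between 60.2% and 61.9% of a library's alignments fell on no annotated feature. The part on genes ranged from 30.7% to 31.4% in the controls and from 29.2% to 30.2% with MS-275, lower in every treated library than in every control. Alignments set aside as lying on more than 1 gene made up 0.202% of all alignments on average with MS-275, above each control library, and between 0.182% and 0.216% in single treated libraries against between 0.172% and 0.178% in the controls. Alignments to more than 1 place in the genome made up 8.89% on average with MS-275, again above each control library, against 8.04% in the controls. Which share of these lay at the Gnas locus or at the other members was not tested.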

How the results depend on the processing

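ENSRNOG00000047374 of Gnas, Adcy8 and Prkaca kept their direction and an adjusted p under 0.05 in all 12 alternatives (DESeq2 1.42.0, scaling by library size alone or by upper quartile, keeping all genes or those with a mean of 1 CPM or more, a replicate block, and each library left out). Their log2 fold changes ranged from 0.52 to 0.68, 0.90 to 1.11 and 0.30 to 0.45. Without 1 library each, Creb1 ranged from -0.25 to 0.16 and Crem from -0.50 to -0.20, Crem passing only without control replicate 3, and ENSRNOG00000025889 ranged from 3.04 to 4.68. With upper-quartile scaling Creb1 was at 0.044 and the sum of the Gnas identifiers at 0.69. The median over all tested genes was 0.08 there, against -0.01. Requiring a log2 fold change of 1 or more in size left 2404 of 8005 genes, 1754 higher and 650 lower, and 1 of the 3 members (Adcy8), which follows from the stricter rule. Whether the replicate numbers pair the libraries was not settled. Correlations of same-numbered deviations were 0.16, -0.02 and 0.13, and differently numbered libraries were not compared. With the replicate block 8255 genes were called, against 8005. The log2 fold changes were then 0.59 for ENSRNOG00000047374, 1.02 for Adcy8, 0.36 for Prkaca, -0.06 for Creb1, -0.33 for Crem and 3.55 for ENSRNOG00000025889. No call of a tested member changed with the block. Depth limits ENSRNOG00000025889, with 23 control counts.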
